A study of Mus musculus with 2 samples.

Results

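The BCL2 family survival genes described here are 9 genes that set the threshold for mitochondrial cell death, taken by name from the 17216 genes that the 2 libraries listed. They comprise 3 prosurvival genes (Bcl2, Bcl2l1 and Mcl1), 2 effector genes (Bax and Bak1) and 4 BH3-only genes (Bcl2l11, Bbc3, Pmaip1 and Bid). RNA came from C57BL/6 mouse cells sorted by flow cytometry as long-term haematopoietic stem cells, with lineage markers and CD48 absent and Sca-1, c-Kit and CD150 present. There was 1 library from wild type littermates and 1 from mice deficient in the cytosolic carboxypeptidase CCP3 (genotype Ccp3-/-). The labels give no age, sex or number of animals, and they do not name the deleted part of the gene. With 1 library per genotype no difference has a replicate check and no test was possible, so each value compares these libraries and not the genotypes.

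Prosurvival BCL2 proteins hold the effectors BAX and BAK in check at the outer mitochondrial membrane. BH3-only proteins are stress sensors that bind the prosurvival proteins or the effectors directly, and once freed or activated the effectors form pores through which cytochrome c leaves and caspases are switched on. MCL1 is known as a survival factor that haematopoietic stem cells cannot do without, and BCL2 and BCL-XL, the protein of Bcl2l1, protect other blood lineages. Much of this balance is set by protein turnover and binding, which RNA levels do not show.

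Of the 9 members, Pmaip1 differed most between the libraries, and the other 8 lay within 1.5-fold. Pmaip1, which encodes the MCL1-binding BH3-only protein NOXA, had a level of 2.77 FPKM (fragments per kilobase of transcript scaled to library depth) in wild type cells and 6.35 FPKM in the knockout-labelled ones. Throughout, the first value of a pair is from the wild type library and the second from the knockout-labelled library. The most abundant members, Bak1 and Mcl1, were listed slightly higher in the knockout-labelled library. A difference is log2(FPKM + 1) of the second library minus the first, so positive values are higher in the knockout-labelled library, and the scale understates differences of low genes. A gene was counted as higher or lower when its mean was at least 1 FPKM and its difference at least 1.5-fold on that scale. By this rule 1 of 9 members was higher and 0 were lower, against 6.11% of 11985 genes higher and 6.13% lower, so the number of members counted was near the background. The median over the 9 members was 0.09, and over all 11985 genes 0.01.

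The targeted gene did not check the genotype label, since Agbl3, which encodes CCP3, was still listed in both libraries, at 1.11 and 0.66 FPKM from about 23 and 15 reads. The library is called knockout-labelled for that reason. The depth implied by the spacing of low FPKM values was about 15.3 and 14.2 M reads. That spacing gave an estimate of the reads behind each value, and all intervals below are 95% intervals that cover counting error only. Markers of the sort and of other cell types also differed. Of 10 stem cell gate and identity genes 4 were lower and 0 higher in the knockout-labelled library, and Cd48, whose protein the gate excluded, stood at 136 and 114 FPKM against 2.14 and 3.40 FPKM for Slamf1, which encodes CD150. Of 15 neutrophil lineage genes 8 were higher and 0 lower, with summed levels of 8523 and 11777 FPKM. Of 11 B cell genes 10 were lower and 0 higher (sums 153.7 and 67.3 FPKM). T cell genes were lower in 5 of 8 (56.1 and 33.9 FPKM), dendritic cell genes, which share Flt3 with the stem cell list, in 7 of 10 (557 and 338 FPKM) and red cell genes in 5 of 10 (1651 and 563 FPKM). No marker on these lists was at 0 in either library, and Xist was listed at 5.38 and 44.2 FPKM. The Y-linked genes Eif2s3y (44.6 and 11.5 FPKM) and Ddx3y (13.8 and 5.93 FPKM) were also listed in both libraries. The part of these cell type and sex-linked differences in the members' values was not tested, and in bulk RNA a smaller number of cells of a type and less RNA per cell cannot be told apart.

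The levels of the 9 members spanned a wide range, and their order was nearly the same in both libraries. In the wild type library Bak1 led at 99.2 FPKM, followed by Mcl1 (74.0), Bid (34.6), Bax (33.3), Bcl2 (15.4), Bcl2l1 (9.78), Bcl2l11 (3.68), Bbc3 (3.52) and Pmaip1 (2.77 FPKM). Neighbours in that order whose counting intervals overlapped were Bid and Bax, Bcl2l11 and Bbc3, and Bbc3 and Pmaip1. The first 6 places were the same in the knockout-labelled library, where Pmaip1 stood at place 7 and above Bbc3 without overlap of their intervals. Bak1 was above 95.5% of the genes listed in the wild type library, while Pmaip1 was above 38.4% there and above 50.4% in the knockout-labelled library.

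**Figure D1:**
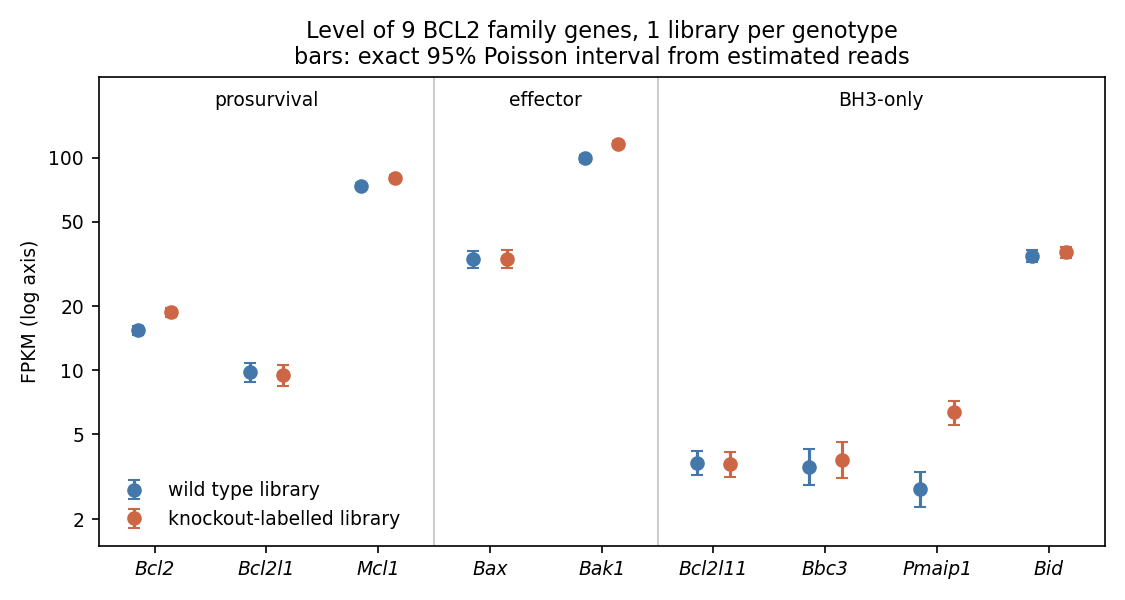
FPKM (log axis) of the 9 members in the wild type and the knockout-labelled library, 1 library each, ordered by role; bars are exact 95% Poisson intervals from estimated reads. Pmaip1 is the only member whose points lie far apart (2.77 and 6.35 FPKM), and Bak1 and Mcl1 stand highest in both libraries.

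The prosurvival genes differed little. Mcl1, whose short-lived protein restrains BAK and BAX, was listed at 74.0 FPKM (counting interval 71.6 to 76.3) and 80.4 FPKM (77.9 to 82.9). The ratio was 1.09 (1.04 to 1.14), and the level intervals did not overlap. Bcl2, the founding member of the family, stood at 15.4 FPKM (14.7 to 16.2) and 18.8 FPKM (17.9 to 19.6), a ratio of 1.22 (1.14 to 1.30). Its difference was 0.27, and -0.015 once each gene was centred on the 200 genes nearest in length. Bcl2l1 stood at 9.78 FPKM (8.81 to 10.8) and 9.48 FPKM (8.46 to 10.6). Its ratio of 0.97 (0.83 to 1.13) included 1, so a difference in either direction was not detectable at this depth. With the FPKM sums of the libraries made equal, Bcl2l1 moved to 0.13 while the median of all genes moved to 0.18. Mcl1 was the most abundant of the 3 per length, at 4.79 and 4.28 times the level of Bcl2, and 7.56 and 8.48 times that of Bcl2l1.

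Both effectors were among the more abundant members, with Bak1 above Bax in each library. Bak1, whose protein sits in the mitochondrial membrane of healthy cells, was listed at 99.2 FPKM (95.7 to 102.8) and 115.7 FPKM (111.8 to 119.8). The ratio was 1.17 (1.11 to 1.23) and the intervals of the levels did not overlap. Bax, whose protein is mostly cytosolic until activated, stood at 33.3 FPKM (30.2 to 36.6) and 33.5 FPKM (30.2 to 36.9), with a ratio of 1.01 (0.87 to 1.16). The Bak1 to Bax ratio was 2.98 and 3.46. Bak1 overlaps Ggnbp1 in the RefSeq annotation, which was listed at 4.04 and 1.14 FPKM, and no source used here states whether reads were counted by strand. The same limit holds for Bcl2l1, which overlaps Cox4i2 (7.38 and 6.63 FPKM), and for Bcl2 and Bcl2l11, which overlap Mir3473f and Acoxl.

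Among the BH3-only genes, Pmaip1 stood apart from the other 3. Its 2.77 FPKM (2.28 to 3.34) and 6.35 FPKM (5.56 to 7.20) came from about 111 and 236 reads, and the intervals did not overlap. The ratio was 2.29 (1.82 to 2.89) and the difference 0.96, which 167 of the 11985 genes (1.39%) reached or passed. Pmaip1 has 1 transcript with the same deposited length in both libraries, and its difference was 0.95 after length centring. With a pseudocount of 5 FPKM the difference was 0.55, under the 1.5-fold rule, and with a minimum mean of 5 FPKM Pmaip1 was not counted, so the number of members counted became 0 under each.

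Bid, which links death receptors to mitochondria once caspase-8 has cut it, was the most abundant BH3-only gene, at 34.6 FPKM (32.5 to 36.8) and 35.9 FPKM (33.6 to 38.2), a ratio of 1.04 (0.95 to 1.13). Bcl2l11 encodes BIM, which responds to loss of growth factors and is regulated by FOXO factors. It was listed at 3.68 FPKM (3.22 to 4.20) and 3.63 FPKM (3.17 to 4.13), a ratio of 0.99 (0.82 to 1.19). With equal FPKM sums it moved to 0.14, and like Bcl2l1 it was under the all-gene median of 0.18. Bbc3 encodes PUMA, a target of p53, and stood at 3.52 FPKM (2.89 to 4.28) and 3.81 FPKM (3.11 to 4.61), a ratio of 1.08 (0.81 to 1.42). The ratio intervals of all 3 included 1. Bbc3 rested on about 105 reads in each library, and its interval was the widest of these 3.

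Across the 9 members, the ratio interval lay wholly above 1 for 4 (Bcl2, Mcl1, Bak1 and Pmaip1) and wholly below 1 for 0. Over all 11985 genes the same held for 31.1% above and 27.0% below. The deeper a gene is counted, the smaller the difference that its interval resolves, and what sets these shares was not tested. These intervals contain no variation between animals or sorts.

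**Figure D2:**
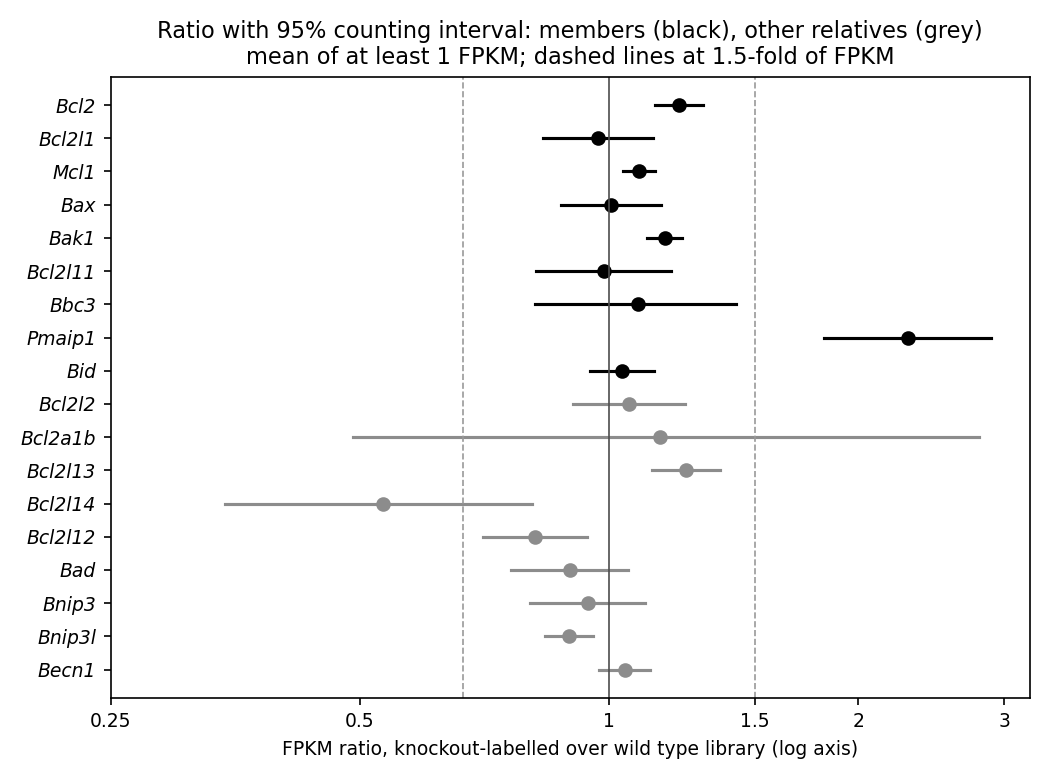
FPKM ratio of the knockout-labelled to the wild type library (log axis) for the 9 members (black) and their relatives with a mean of at least 1 FPKM (grey); lines are 95% counting intervals and dashed lines mark 1.5-fold of FPKM, without the pseudocount. Pmaip1 at 2.29 is the only member whose interval lies beyond a dashed line.

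Summed by role, the RNA of the family kept nearly the same proportions. Prosurvival genes summed to 99.2 and 108.6 FPKM, effectors to 132.5 and 149.2 FPKM, and BH3-only genes to 44.6 and 49.7 FPKM. As shares of the 9-gene sum these were 35.9% and 35.3% for prosurvival genes, 48.0% and 48.5% for effectors, and 16.1% and 16.2% for BH3-only genes. Most of each sum came from its most abundant gene, Mcl1 (74.0 and 80.4 FPKM), Bak1 (99.2 and 115.7 FPKM) or Bid (34.6 and 35.9 FPKM). The shares therefore mainly follow Mcl1, Bak1 and Bid. Pmaip1 (2.77 and 6.35 FPKM) was a small part of the BH3-only sum, so its difference hardly shows in these shares. The prosurvival to effector ratio was 0.75 and 0.73. NOXA binds MCL1, and the Mcl1 to Pmaip1 ratio of FPKM was 26.7 and 12.7. BIM binds BCL2, and the Bcl2 to Bcl2l11 ratio was 4.20 and 5.17. These ratios were not centred on length, and after centring the difference of Bcl2 was -0.015 and that of Bcl2l11 -0.17.

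The deposited gene length bears on 3 members. Bcl2 (2 transcripts) had a length of 7127 and 7090 bases, Bcl2l1 (4 transcripts) 2514 and 2397 bases, and Bcl2l11 (5 transcripts) 4060 and 4397 bases. The other 6 members had 1 transcript each and the same length in both libraries. Over the series no gene with 1 transcript changed length, against 3841 of 4783 genes with several. Both Bcl2l1 and Bcl2l11 are known for splice forms of unlike activity, but the files give no value per transcript.

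Differences in the series also followed length, with a median of -0.30 for genes under 1000 bases and 0.25 for genes over 5000 bases. Set against the 200 genes nearest in length, Bax was at 0.30, Bak1 at 0.31, Bbc3 at 0.20, Bid at 0.14, Mcl1 at 0.02, Bcl2 at -0.015, Bcl2l1 at -0.04 and Bcl2l11 at -0.17. On that scale both effectors were above the other members except Pmaip1, and all members but Pmaip1 stayed within 1.5-fold. The centred values have no intervals, and the ratio intervals of Bax, Bbc3 and Bid included 1, so their order was not resolved. With the FPKM sums of the libraries made equal, the median of all genes moved to 0.18 and the split of counted genes went from 732 higher and 735 lower to 1474 higher and 397 lower, while the members counted were still 1 of 9.

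**Figure D3:**
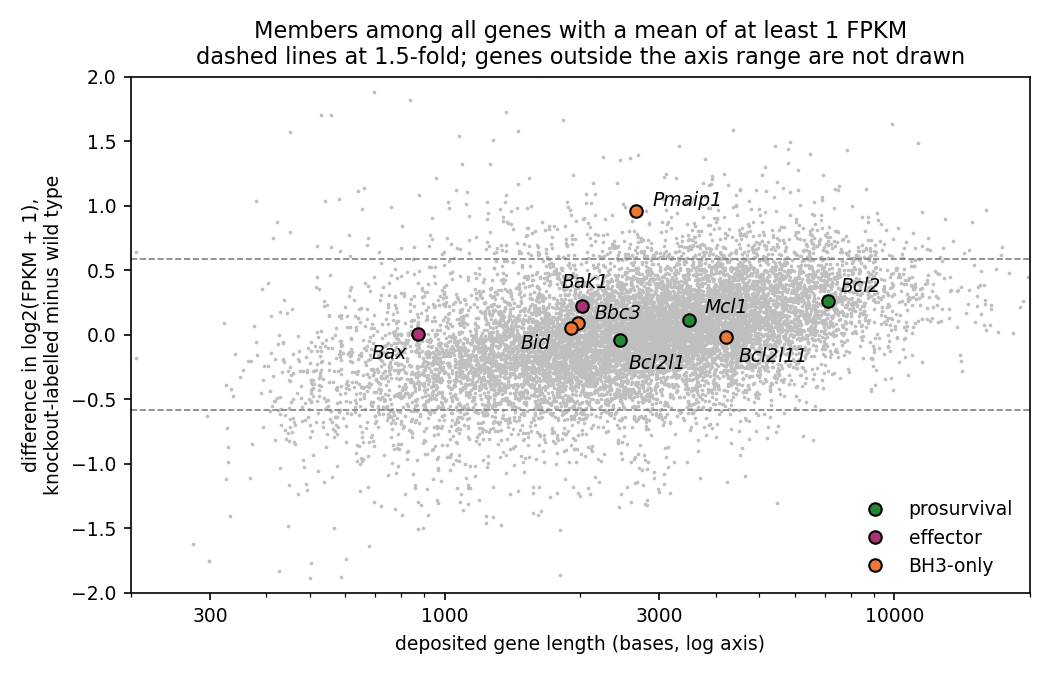
Difference in log2(FPKM + 1), knockout-labelled minus wild type, against deposited gene length (log axis) for genes averaging at least 1 FPKM (grey) and the 9 members (coloured by role); dashed lines mark 1.5-fold. Pmaip1 lies above the upper line at 0.96, and Bcl2 at 0.27 sits within the cloud of long genes.

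Of 18 further relatives searched, 16 were listed and 9 had a mean of at least 1 FPKM, and these 9 all lay within 1.5-fold. The other 7 were under that mean and were not counted. Among these 7, named after their values were seen, Bcl2l15 was listed at 0.06 and 0.68 FPKM from about 2 and 13 reads and Bcl2a1d at 0.89 and 0.25 FPKM from about 10 and 3 reads, differences of 0.66 and -0.60 that exceed 1.5-fold. Bcl2l10 and Bcl2a1c were in neither file. The prosurvival gene Bcl2l2 (BCL-W) was listed at 6.27 and 6.63 FPKM and Bcl2a1b at 1.12 and 1.29 FPKM. The Bcl2a1 genes are close copies that may share reads, and their sum was 2.20 and 1.54 FPKM. On the list named effector-like, a grouping that does not establish pore-forming activity, Bcl2l12 stood at 27.7 and 22.6 FPKM and Bcl2l13 at 8.01 and 9.92 FPKM. Among BH3-only or BH3-like genes the autophagy gene Becn1 stood at 52.9 and 55.2 FPKM and the mitophagy receptor gene Bnip3l at 39.2 and 35.01 FPKM. Bcl2l14, singled out after its values were seen, had the lowest ratio of these 9, at 0.53 (0.34 to 0.81) from 2.12 and 1.13 FPKM, but its difference of -0.55 was within 1.5-fold on the log2(FPKM + 1) scale.

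Downstream of the pores, 1 of 15 apoptosome, caspase and inhibitor genes was higher and 1 lower, with a list median of 0.12. Apaf1, the scaffold that cytochrome c assembles into the apoptosome, was listed at 6.75 and 11.9 FPKM, a ratio of 1.77 (1.60 to 1.95). Diablo, whose protein leaves mitochondria and relieves caspase inhibition, was listed at 26.6 and 16.9 FPKM, a ratio of 0.63 (0.56 to 0.71). After length centring neither passed 1.5-fold, at 0.51 for Apaf1 and -0.51 for Diablo. The most abundant gene of the list was Cycs, which encodes cytochrome c itself (107 and 124 FPKM). All 10 genes of mitochondrial membrane partners lay within 1.5-fold, with a median of 0.06. They included Vdac2, which encodes a channel that holds BAK at the membrane (146 and 140.1 FPKM), and the fission gene Fis1 (166 and 121.0 FPKM).

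Upstream of the members, the 9 death receptor genes lay within 1.5-fold on the log2(FPKM + 1) scale, with a median of 0.00. Fas, singled out after its values were seen, stood at 1.31 and 2.33 FPKM from about 29 and 48 reads. Its ratio was 1.78 (1.10 to 2.93). The difference of Fas was 0.53, and 0.69 after length centring, past 1.5-fold. Casp8, which encodes the protease that activates BID, was listed at 68.7 and 60.9 FPKM and the receptor gene Tnfrsf1a at 57.5 and 57.2 FPKM. Since Pmaip1, Bbc3 and Bax are known p53 targets, p53 and a chosen list of other targets were described together. The list shares Bcl2l12 with the effector-like list and does not hold Apaf1 or Fas, described above. Its counts therefore do not cover every p53 target. Of 16 genes of the list that passed the filter, 0 were higher and 3 lower, beside 6.13% lower among all genes. Of these 16, 7 were above 0. The list median was -0.12, beside 0.01 over all genes. With equal FPKM sums, which raise every value of the knockout-labelled library, these medians became 0.07 and 0.18. Trp53 itself stood at 124.7 and 106.8 FPKM and Mdm2, a target that encodes the ligase of p53, at 28.8 and 28.2 FPKM. The 3 lower genes were Btg2 (30.2 and 16.0 FPKM, ratio 0.53, 0.48 to 0.58), Plk2 (4.68 and 2.62 FPKM, ratio 0.56, 0.44 to 0.71) and Phlda3 (1.81 and 0.73 FPKM, ratio 0.40, 0.21 to 0.75). Btg2 and Plk2 are also known as immediate early genes, and Phlda3 was at -0.55 after length centring, under the rule. Other genes of the list had ratio intervals wholly above 1, as Pmaip1 did, or wholly below 1. They were named after their values were seen. Above 1 were Trp53inp1 (4.48 and 6.85 FPKM, 1.34 to 1.75) and Perp (0.84 and 1.51 FPKM, 1.06 to 3.11). So were Ccng1 (18.9 and 22.0 FPKM, 1.07 to 1.28), Aen (22.5 and 25.8 FPKM, 1.04 to 1.26) and Gtse1 (13.6 and 15.6 FPKM, 1.02 to 1.29). Wholly below 1 were Trp53, Cdkn1a, Sesn1, Pidd1 and Bcl2l12, as well as the 3 lower genes. Over all 11985 genes the shares were 31.1% above and 27.0% below.

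Genes that act on BIM expression and on MCL1 protein completed the set. The FOXO genes were within 1.5-fold, with Foxo3 at 13.9 and 13.8 FPKM and Foxo4 at 13.8 and 13.4 FPKM. Of 4 genes that control MCL1 turnover 1 was higher, Usp9x, whose product removes ubiquitin from MCL1, at 11.0 and 19.2 FPKM, a ratio of 1.74 (1.64 to 1.84). It has a length of 11903 bases and was at 0.43 after length centring, within 1.5-fold. Huwe1, which encodes an MCL1 ubiquitin ligase, stood at 36.8 and 47.0 FPKM. The list median was 0.45, or 0.21 after length centring.

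**Figure D4:**
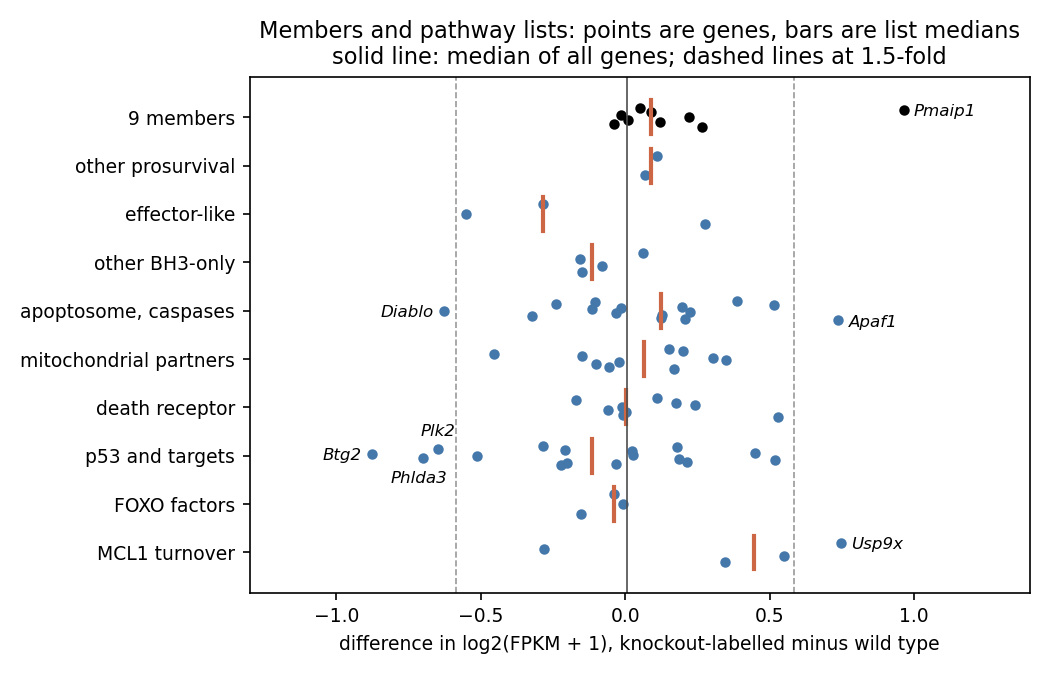
Difference in log2(FPKM + 1), knockout-labelled minus wild type, for the 9 members and 9 pathway lists; points are genes averaging at least 1 FPKM, short bars list medians, the solid line the median of all genes and dashed lines 1.5-fold. Named points are those beyond 1.5-fold: Pmaip1, Apaf1 and Usp9x higher, and Diablo, Btg2, Plk2 and Phlda3 lower.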

How the data were processed

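The authors deposited, per the file headers, an Entrez gene identifier, RefSeq transcripts, a gene length and an FPKM value per gene for each library. The submitters' processing notes name HISAT, HISAT2, RSEM and the build mm9, with roles and settings not given in the sources used here. Symbols came from RefSeq on GRCm38.p6, where 17169 of 17216 identifiers matched, and no coordinates are given because the builds differ. Genes missing from one file were set to 0 there.

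The members and lists were chosen with earlier results of these data known. Named were all members and, of each pathway list, genes past 1.5-fold and the 2 most abundant; 1 gene that this rule names is not reported here. Reads were estimated as FPKM times length less 37 bases, divided by steps of 65.3 and 70.3, which put 82.4% of 393 and 84.7% of 391 low values within 0.15 of a whole read; step and offset were fitted to these same values. Ratio intervals were exact conditional (Clopper-Pearson) and level intervals exact Poisson. The procedure was tested on simulated data drawn from the read model that the intervals assume. The simulated data held no length trend and no variation between animals. Alternatives covered the pseudocount, filter, scaling and length centring. Computations ran in Python 3.11.15 with scipy 1.17.1, pandas 2.3.3, numpy 2.4.6 and matplotlib 3.10.9.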

Additional observations from a re-analysis of the deposited data

How the results depend on the processing

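The number of members at least 1.5-fold apart was 1, and it was 0 with a pseudocount of 5 FPKM and with a minimum mean of 5 FPKM. Over all genes the counts of 732 higher and 735 lower became 282 and 322 with a pseudocount of 5 FPKM, 1474 and 397 with equal FPKM sums, and 481 and 430 with a minimum mean of 5 FPKM. The difference of Bcl2, 0.27, shrank to -0.015 after length centring, and the cause was not tested. The sign of a difference cannot change with the pseudocount, so the settings of 0.1 and 5 FPKM do not check direction. Direction was kept by 8 of 9 members with equal upper quartiles (not Bax) and by 8 of 9 with length centring (not Bcl2). With equal FPKM sums 7 of 9 kept it, and Bcl2l1 and Bcl2l11 moved above 0 as the all-gene median moved to 0.18. The ratio intervals of 5 members included 1, so their direction was not resolved. Estimating reads without the length offset moved no bound of a member's ratio interval across 1. The offset of 37 bases is short beside the members' lengths, so this setting could hardly move the bounds. No paired analysis was possible because there was 1 library per genotype, and for the same reason no library could be left out. Depth limits the members with the fewest reads, Bbc3, Pmaip1 and Bcl2l11.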
